A study of Mus musculus with 6 samples.

Results

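Glutathione, thioredoxin and antioxidant enzyme genes were examined in brain-resident macrophages (microglia) of mice given methamphetamine (Meth) or saline (Saline). The set was chosen by gene symbol: glutathione transferases (Gst, Mgst), glutathione peroxidases (Gpx), peroxiredoxins (Prdx), thioredoxins and their reductases (Txn, Txnrd), superoxide dismutases (Sod), and 12 single genes of glutathione synthesis, disulfide reduction, peroxide removal and Nrf2 control. It holds 52 of the 23930 genes in the authors' deposited table. Genes of these families without a row there were not analysed here.

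The mice were adult wild-type C57BL/6 animals. Methamphetamine, a psychostimulant that releases monoamines, was given 4 times, 2 h apart, at 5 mg/kg to 3 mice, and saline was given on the same schedule to 3 mice. After perfusion, cells with CD11b, low CD45 and no CD206 were sorted from the brains, and RNA was read with an amplicon panel in which each gene has its own primer pair. The authors' deposited table lists, for each gene, the log2 average of each group, a signed fold of Meth over Saline, an unadjusted p and a p adjusted for the false discovery rate (FDR). With 0 columns for single mice, the table gives neither the spread within a group nor the depth of a library, and folds and p-values below are the authors' own unless said to be computed here.

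Glutathione is a small thiol peptide made by the glutamate-cysteine ligase (Gclc and Gclm) and glutathione synthetase (Gss) from cysteine that the transporter Slc7a11 brings in as cystine. Glutathione peroxidases use it to reduce peroxides, transferases attach it to electrophiles, and glutathione reductase (Gsr) recycles it. Thioredoxin serves peroxiredoxins in the same way and is recycled by thioredoxin reductases, while the transcription factor Nrf2 (Nfe2l2), held down by Keap1, drives many of these genes through antioxidant response elements. In microglia these systems act on oxidants that the cells themselves release and on those of damaged neighbours.

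The sort was checked against marker genes. Of 7 microglial markers, 2 had higher Meth averages, 4 had lower ones and 1 was equal, P2ry12 at 9.20. Cx3cr1 stood at 10.66 in Meth and 11.27 in Saline, Csf1r at 12.23 and 12.29, Sall1 at 6.81 and 7.52, Trem2 at 10.44 and 9.99, and Aif1 at 9.84 and 9.51 in the authors' deposited table. Tmem119 stood at 10.85 in Meth and 11.75 in Saline per the authors' deposited table (unadjusted p = 0.0454). Of 45 markers of 9 other cell classes, 41 were listed in the authors' deposited table, with Lyve1, Ly6g, Cd3e and Ms4a1 at 0 in both groups. Computed as 2 to the power of the average, minus 1, these 41 genes summed to 0.0241% of all genes in Meth and 0.0306% in Saline. Mrc1, which encodes the CD206 that the sort gated out, stood at 4.80 in Meth and 4.44 in Saline according to the authors' deposited table. The neuronal markers Stmn2 (1.97 in Meth and 0.92 in Saline) and Gad1 (1.56 and 0.21) were higher and the endothelial marker Cdh5 (1.31 and 3.11) was lower at unadjusted p of 0.0014, 0.0132 and 0.0231, as given in the authors' deposited table. Neither class shared a direction over all its markers. Of the 7 neuronal markers, 4 were higher in Meth, 2 lower and 1 equal. Of the 7 endothelial and mural markers, 4 were higher and 3 lower. The 4 higher ones were under 1 in both groups, where a direction means little. The 3 at 1 or above in either group, Cdh5, Kdr and Pecam1, were all lower in Meth. The 5 oligodendrocyte markers summed to 57.9 in Meth and 27.9 in Saline on the same computed scale. The part of these cells in the results below was not tested. Averages below 0 were given for 14 genes in Meth and 1425 in Saline, which a mean of the log2 of a read rate plus 1 cannot be, so the averages may be adjusted values. None of the 52 antioxidant genes (0) had an average below 0.

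The comparison of Meth with Saline asks how antioxidant transcripts of microglia differ after methamphetamine. The single member past an FDR adjusted p of 0.05 in the authors' deposited table was Gstt2, a theta-class glutathione transferase, which fell to 1.21 in Meth, against 2.04 in Saline (1.77-fold lower, unadjusted p = 0.0003, adjusted p = 0.0137). Among all genes of that table, 0.0878% were called lower and 2.15% were called higher, and 0 of the 52 members were called higher. Of the 515 genes called higher 16 were at 1 or above in either group (0.154% of genes at that level), and of the 21 called lower, 21 (0.202%). The call on Gstt2 was lost (adjusted p = 0.208, computed here) when the p-values of the authors' deposited table went through a Benjamini-Hochberg step restricted to the 10375 genes at 1 or above in either group, of which 0 passed. Its level lies near the floor of the scale, where the offset of 1 inside the log2 matters, and its difference of -0.83 came to -0.36 with an offset of 5. In RNA pooled from sorted cells, less RNA per cell and fewer cells that express a gene cannot be told apart, here and for the genes below.

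Of the 52 members, 25 had a higher Meth average, 19 a lower one and 8 one equal to 2 decimals, of which 6 were listed at 0.00 in both groups. For Gstt1 and Sod3, 2 of those 6, the authors' deposited table gives a negative signed fold and unadjusted p of 0.5585 and 0.5586. The median difference was 0.00 for the members and 0.00 for all genes. An unadjusted p under 0.05 was listed for 4 members higher in Meth (7.69%) and 3 lower (5.77%) per the authors' deposited table, against 6.38% and 3.76% of all genes. Of the 34 members with either average at 1 or above, those 7 made up 11.8% higher and 8.82% lower, against 6.46% and 8.19% of all genes at that level. The member counts are small, and the shares lie near those of all genes. The 7 were Gclc, Gsto1, Gstz1 and Sod2 (higher) and Gclm, Gstt2 and Txnrd2 (lower).

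**Figure D1:**
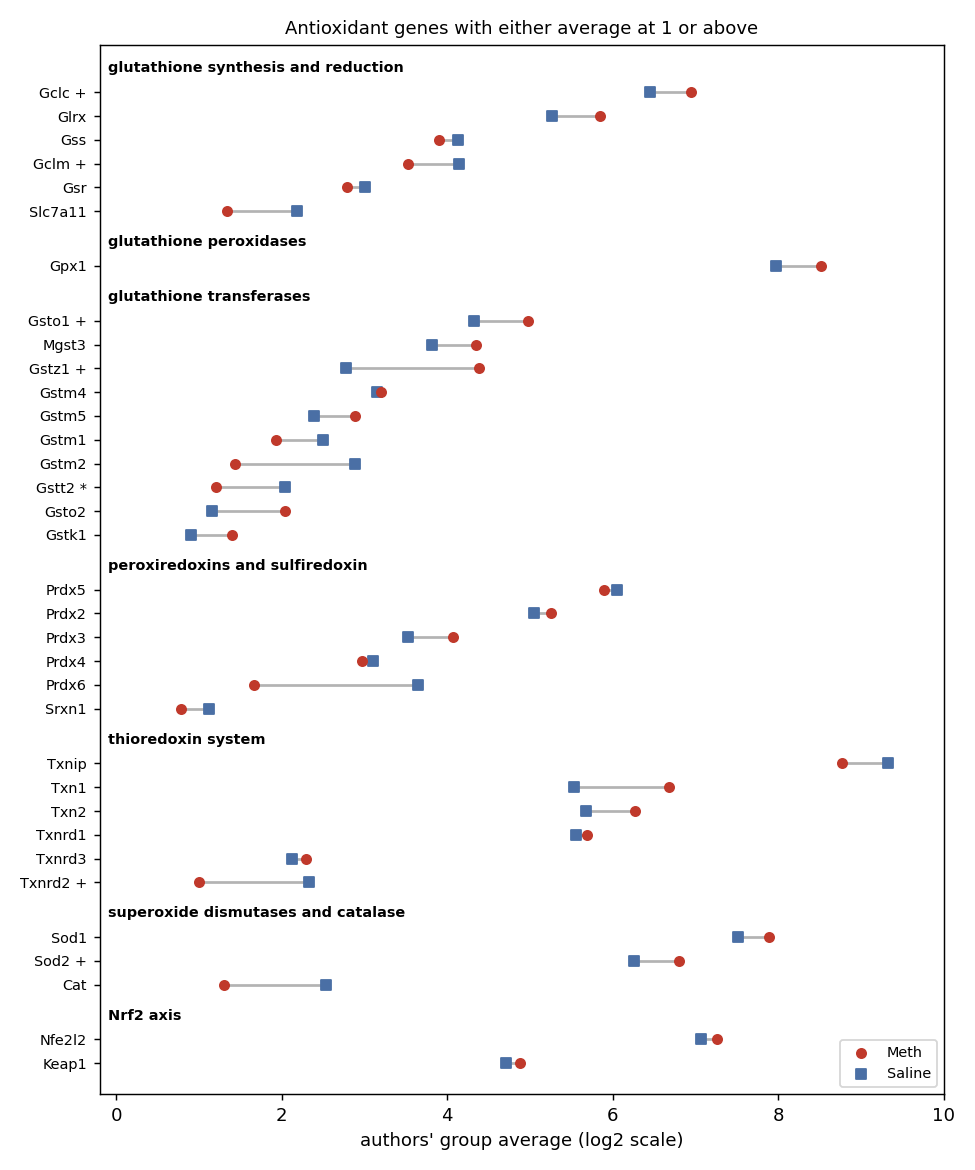
Authors' group averages (log2 scale, x axis) of the 34 antioxidant genes with either average at 1 or above, ordered by role and level, with Meth as red circles and Saline as blue squares joined by a line. A star marks an FDR adjusted p under 0.05 and a plus an unadjusted p under 0.05; each point is the authors' average for 3 mice, with no error given, and Gstt2 at 1.21 in Meth and 2.04 in Saline is the single starred gene.

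The plot of group averages by role shows how the differences sit by level. Of the 12 members that averaged 5 or above over both groups, 10 were higher in Meth and 2 lower (Txnip and Prdx5). Among all genes at that level, 54.3% were higher and 45% lower. Of the 22 members with either average at 1 or above and a mean under 5, 10 were higher and 12 lower, against 47.6% and 51.9% of all such genes.

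Glutathione synthesis and reduction, whose 6 genes were at 1 or above, had 2 higher and 4 lower averages in Meth. The catalytic and the modifier subunit of glutamate-cysteine ligase, the rate-limiting enzyme of glutathione synthesis, differed in opposite directions. Gclc, the catalytic subunit, stood at 6.95 in Meth and 6.45 in Saline as given in the authors' deposited table (1.41-fold higher, unadjusted p = 0.0115, adjusted p = 0.2740). Gclm, the modifier subunit that raises the catalytic efficiency, stood at 3.52 in Meth and 4.14 in Saline per the authors' deposited table (1.53-fold lower, unadjusted p = 0.0487, adjusted p = 0.4887). The log2 difference of Gclm, -0.62, came to -0.48 with an offset of 5 and to -0.42 with the trend in transcript GC content removed. That of Gclc, 0.50, came to 0.48 and 0.46. Whether the 2 subunits differ from each other in response cannot be tested without values per mouse. Glutathione synthetase, Gss, the enzyme of the second step, stood at 3.90 in Meth and 4.13 in Saline according to the authors' deposited table (unadjusted p = 0.4898).

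Gclm is a textbook target of Nrf2, so matches to the antioxidant response element are shown for it and for 3 other members. The letters TGACNNNGC were searched on both strands of the RefSeq promoters (GRCm38.p6), which run from 250 bases before to 50 bases after each start. Of the 45 members with an entry, 9 held a match (20%), against 14% of 27025 genes with an entry and 17.2% of the 7996 among them with either average at 1 or above. A match describes these letters and is not a binding site. In 4 members the stretch before the start is printed with the match in capitals, the whole 250 bases for Gclm (chr3:122245307-122245556, plus strand) and shorter pieces for Nfe2l2 (chr2:75704879-75704913, minus strand), Gstm5 (chr3:107895796-107895836, plus strand) and Sod1 (chr16:90220690-90220730, plus strand). In Gclm and Sod1 the element reads on the opposite strand, so its reverse complement is in capitals.
Gclm: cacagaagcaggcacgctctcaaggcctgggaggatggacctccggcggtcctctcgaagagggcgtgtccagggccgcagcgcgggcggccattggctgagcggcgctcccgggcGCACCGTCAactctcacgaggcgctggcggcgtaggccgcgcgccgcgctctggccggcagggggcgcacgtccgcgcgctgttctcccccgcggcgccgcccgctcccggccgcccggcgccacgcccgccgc
Nfe2l2: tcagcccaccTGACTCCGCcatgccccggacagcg
Gstm5: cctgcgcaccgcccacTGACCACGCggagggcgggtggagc
Sod1: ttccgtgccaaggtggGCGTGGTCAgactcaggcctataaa
The 9 members with a match were Nfe2l2, Gclm, Gstm5, Sod1, Gsta3, Srxn1, Gstm7, Mgst1 and Txnrd1. Their averages did not share a direction: 5 were higher in Meth, 3 were lower and 1 was equal, with a median difference of 0.06 (log2, Meth minus Saline, computed here). The other 36 members with an entry had 17 higher, 13 lower and 6 equal, with a median of 0.00. Bases outside the window were not searched, so these 36 may hold matches elsewhere. Among the 9, Gsta3, Gstm7 and Mgst1 were under 1 in both groups, where a direction means little. Gclm was the single member with a match whose unadjusted p was under 0.05.

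Slc7a11, the cystine-glutamate exchanger, stood at 1.34 in Meth and 2.19 in Saline as given in the authors' deposited table (1.81-fold lower, unadjusted p = 0.2326), and its log2 difference of -0.85 came to -0.39 with an offset of 5. Its heavy chain Slc3a2, which is shared with other amino acid transporters, stood at 6.44 in Meth and 7.96 in Saline per the authors' deposited table (2.87-fold lower, unadjusted p = 0.0967). Gsr, which reduces oxidised glutathione with NADPH, stood at 2.79 in Meth and 3.01 in Saline according to the authors' deposited table (unadjusted p = 0.3863). Glrx, the cytosolic glutaredoxin that removes glutathione from protein thiols, stood at 5.84 in Meth and 5.27 in Saline as given in the authors' deposited table (1.48-fold higher, unadjusted p = 0.1846).

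Of the 7 glutathione peroxidases with a row in the authors' deposited table, 1 was at 1 or above. Gpx4 has no row there and was not examined. Gpx1, the cytosolic and mitochondrial selenoenzyme that reduces hydrogen peroxide, stood at 8.51 in Meth and 7.97 in Saline per the authors' deposited table (1.46-fold higher, unadjusted p = 0.1591). Its log2 difference of 0.54 came to 0.28 with the GC trend removed. Under 1 in both groups of the authors' deposited table were Gpx7 (0.39 in Meth, 0.11 in Saline, unadjusted p = 0.0754), the secreted Gpx3 (0.15 and 0.32) and Gpx2 (0.00 and 0.21). Gpx5, Gpx6 and Gpx8 were listed at 0 in both groups. Fth1, the ferritin heavy chain that every cell uses, was also listed at 0 in both groups. A poor primer pair and a low transcript level cannot be told apart in such values.

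Glutathione transferases were the largest family, with 19 genes, of which 10 averages were higher in Meth, 5 lower and 4 equal. Besides Gstt2, an unadjusted p under 0.05 was listed for 2 members, both higher. Gstz1, the zeta-class enzyme of tyrosine breakdown (maleylacetoacetate isomerase), stood at 4.38 in Meth and 2.78 in Saline according to the authors' deposited table (3.03-fold higher, unadjusted p = 0.0481, adjusted p = 0.4868), which is the largest higher difference among the 52 genes, 1.60 on the log2 scale. With an offset of 5 the difference of Gstz1 came to 1.19. Gsto1, the omega-class enzyme with thioltransferase activity, stood at 4.98 in Meth and 4.32 in Saline as given in the authors' deposited table (1.58-fold higher, unadjusted p = 0.0201, adjusted p = 0.3590). Its paralog and direct neighbour on chromosome 19, Gsto2, stood at 2.04 in Meth and 1.16 in Saline per the authors' deposited table (1.84-fold higher, unadjusted p = 0.3333).

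The theta and mu classes lie in gene clusters. Gstt2 sits on chromosome 10 beside Gstt4 and Gstt1, which the authors' deposited table listed at 0.02 and 0.00, each in both groups. Gstt2 was thus the single theta gene of the set with a measurable average. Gstt3, which lies beside Gstt1 and Gstt4, has no row there and was not examined. The 7 mu-class genes sit side by side on chromosome 3, and their differences ran from -1.45 (Gstm2) to 0.49 (Gstm5). Gstm2 stood at 1.43 in Meth and 2.88 in Saline according to the authors' deposited table (2.74-fold lower, unadjusted p = 0.1088). With an offset of 5 the differences of low transferases came nearer to 0, at -0.76 for Gstm2, -0.31 for Gstm1 (-0.57 with an offset of 1), 0.30 for Gstm5, 0.38 for Gsto2 (0.88 with an offset of 1) and 0.18 for Gstk1 (0.50 with an offset of 1). Gstm1 was 1.49-fold lower (1.93 in Meth and 2.50 in Saline), Gstm5 was higher (2.88 and 2.39) and Gstm4 stood at 3.20 and 3.15 in the authors' deposited table, with unadjusted p of 0.3545, 0.0875 and 0.5942. Gstm3, Gstm6 and Gstm7 were under 1 in both groups. Mu-class genes resemble each other closely, so reads of an amplicon could be shared between them, and the single values are uncertain. Mgst3, a membrane-bound transferase and peroxidase, stood at 4.35 in Meth and 3.82 in Saline as given in the authors' deposited table (1.44-fold higher, unadjusted p = 0.3175). The remaining transferases were Gstk1, a mitochondrial and peroxisomal enzyme (1.40 in Meth, 0.90 in Saline), and, under 1 in both groups of the authors' deposited table, Gsta4, Mgst1, Mgst2 and Gsta3.

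Peroxiredoxins, which reduce peroxides with thioredoxin or another thiol donor, had 3 higher and 3 lower averages, and 0 of 6 had an unadjusted p under 0.05. Prdx1 has no row in the authors' deposited table and was not examined. The largest lower difference of all 52 genes, -1.98, was that of Prdx6, the 1-cysteine peroxiredoxin that uses glutathione and also has phospholipase activity. Prdx6 stood at 1.67 in Meth and 3.65 in Saline per the authors' deposited table (3.95-fold lower, unadjusted p = 0.1321, adjusted p = 0.6323). With an offset of 5 its difference came to -1.20. Next in size, the mitochondrial Prdx3 stood at 4.07 in Meth and 3.52 in Saline according to the authors' deposited table (1.46-fold higher, unadjusted p = 0.2423). Prdx5 (5.89 in Meth and 6.05 in Saline), the cytosolic Prdx2 (5.25 and 5.05) and the endoplasmic reticulum enzyme Prdx4 (2.97 and 3.10) differed by at most 1.15-fold in the authors' deposited table. Sulfiredoxin, Srxn1, which repairs overoxidised peroxiredoxins, stood at 0.78 in Meth and 1.12 in Saline as given in the authors' deposited table (unadjusted p = 0.1204).

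In brain, Prdx6 and Slc7a11 are known as genes that astrocytes express strongly. The 7 astrocyte markers summed to 61.6 in Meth and 153 in Saline (2 to the power of the average, minus 1, computed here), and 4 of them were higher and 3 lower in Meth. Most of that sum was Slc1a3, at 5.21 in Meth and 7.02 in Saline per the authors' deposited table (unadjusted p = 0.1565). Next in level, Slc1a2 (3.80 in Meth and 3.78 in Saline) and Aldoc (3.40 and 3.32) hardly differed there. Aldh1l1 (1.26 and 0.42) was higher in Meth and Gja1 (1.13 and 1.62) lower, while Gfap (0.10 and 0.24) and Aqp4 (0.49 and 0.35) were near 0. The part of astrocyte RNA in the Prdx6 and Slc7a11 values was not tested.

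The thioredoxin system had 4 higher and 2 lower averages in Meth. Thioredoxins of both compartments had higher averages, and the mitochondrial reductase had a lower one. Cytosolic thioredoxin, Txn1, stood at 6.68 in Meth and 5.53 in Saline according to the authors' deposited table (2.23-fold higher, unadjusted p = 0.0546, adjusted p = 0.5042). Mitochondrial thioredoxin, Txn2, stood at 6.27 in Meth and 5.67 in Saline as given in the authors' deposited table (1.51-fold higher, unadjusted p = 0.0860). Txnrd2, the selenoenzyme that reduces Txn2 in mitochondria, stood at 1.00 in Meth and 2.33 in Saline per the authors' deposited table (2.51-fold lower, unadjusted p = 0.0307, adjusted p = 0.4143). Its difference of -1.33 came to -0.59 with an offset of 5 inside the log2.

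The other reductases differed by at most 1.12-fold. Txnrd1, the cytosolic enzyme, stood at 5.69 in Meth and 5.56 in Saline according to the authors' deposited table (1.09-fold higher, unadjusted p = 0.5413). Txnrd3, a reductase with a glutaredoxin domain that is best known from testis, stood at 2.29 in Meth and 2.12 in Saline as given in the authors' deposited table (unadjusted p = 0.7233). Txnip, which binds and inhibits thioredoxin and also limits glucose uptake, had the highest listed averages of the 52 genes, 8.77 in Meth and 9.32 in Saline per the authors' deposited table (1.46-fold lower, unadjusted p = 0.0731).

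The averages of 2 superoxide dismutases were higher and that of catalase was lower in Meth. Sod2, the mitochondrial manganese enzyme, stood at 6.80 in Meth and 6.26 in Saline according to the authors' deposited table (1.45-fold higher, unadjusted p = 0.0226, adjusted p = 0.3779). Sod1, the cytosolic copper-zinc enzyme, stood at 7.89 in Meth and 7.51 in Saline as given in the authors' deposited table (1.30-fold higher, unadjusted p = 0.3276). Cat, the peroxisomal catalase that splits hydrogen peroxide, stood at 1.30 in Meth and 2.54 in Saline per the authors' deposited table (2.37-fold lower, unadjusted p = 0.0824), a log2 difference of -1.24 that came to -0.60 with an offset of 5. Sod3, the extracellular enzyme, was listed at 0.00 in both groups.

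The averages of the Nrf2 axis differed by at most 1.14-fold. Nfe2l2 stood at 7.26 in Meth and 7.07 in Saline according to the authors' deposited table (1.14-fold higher, unadjusted p = 0.9818), and Keap1 at 4.88 in Meth and 4.71 in Saline (1.13-fold higher, unadjusted p = 0.9472). With the trend in transcript GC content removed, the difference of Keap1 changed sign, from 0.17 to -0.10. Nqo1, a quinone reductase widely used as a readout of Nrf2, was near 0 in both groups of the authors' deposited table (0.06 in Meth, 0.14 in Saline, unadjusted p = 0.5678). Hmox1, the inducible heme oxygenase and another Nrf2 target, stood at 5.88 in Meth and 5.91 in Saline as given in the authors' deposited table (unadjusted p = 0.7514).

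**Figure D2:**
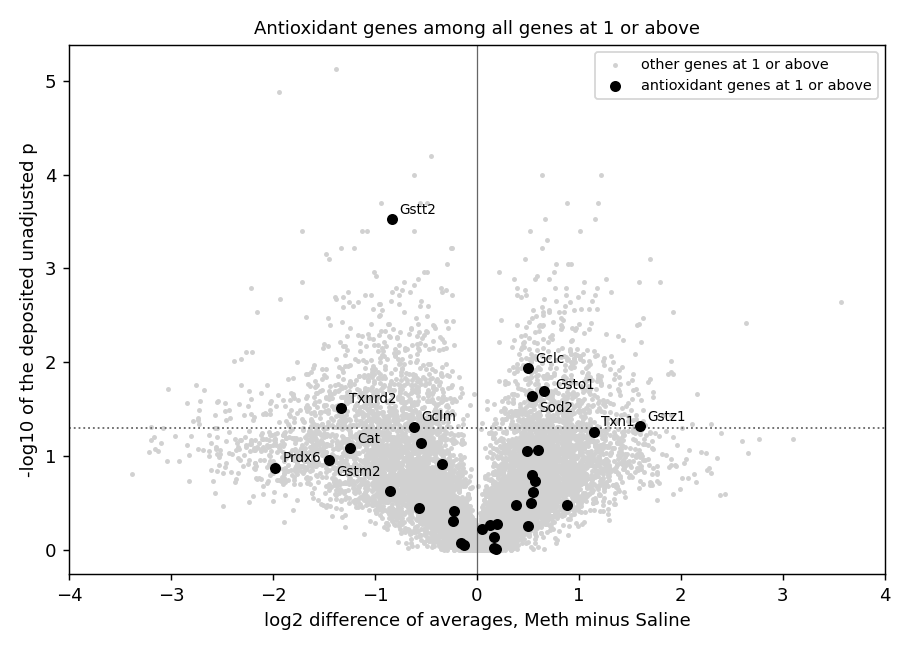
Log2 difference of the averages (Meth minus Saline, x axis) against −log10 of the unadjusted p of the authors' deposited table (y axis) for the 10375 genes with either average at 1 or above, with antioxidant genes in black and a dotted line at p = 0.05. The antioxidant genes lie within the cloud of all genes on both sides; genes past that line or with a difference over 1 are labelled, and Prdx6 at -1.98 and Gstz1 at 1.60 mark the ends.

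Across the roles, transcripts for 1 compartment did not share a direction. In mitochondria, Sod2, Prdx3 and Txn2 had higher Meth averages and Txnrd2 a lower one, as the plot of difference against p shows for the labelled genes. The members of the whole set summed to 0.203% of all genes in Meth and 0.180% in Saline (2 to the power of the average, minus 1, computed here), with no test possible on 1 value per group. By role these shares were 0.0681% in Meth and 0.0777% in Saline for the thioredoxin system, in which Txnip holds most. The listed glutathione peroxidases, of which Gpx1 makes up most, held 0.0371% in Meth and 0.0247% in Saline. The dismutases and catalase held 0.0355% in Meth and 0.0259% in Saline, and synthesis and reduction 0.0215% in Meth and 0.0166% in Saline.

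Further genes of the pathway, listed for their function, gave the surroundings of these values. Of 66 listed genes, 59 had a row in the authors' deposited table; 28 of them were higher in Meth, 29 were lower, and the median difference was 0.00. An unadjusted p under 0.05 was listed for 4 higher and 7 lower genes in the authors' deposited table, and 0 of the 59 had an adjusted p under 0.05. These are 6.78% and 11.9% of the 59, against 6.38% and 3.76% of all genes. Among all genes at 1 or above, the level of 52 of the 59, the shares were 6.46% and 8.19%. The lower pathway genes include Nxn, which was under 1 in both groups, so this second comparison is between unlike sets. The plot by role and pathway list places them beside the members.

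**Figure D3:**
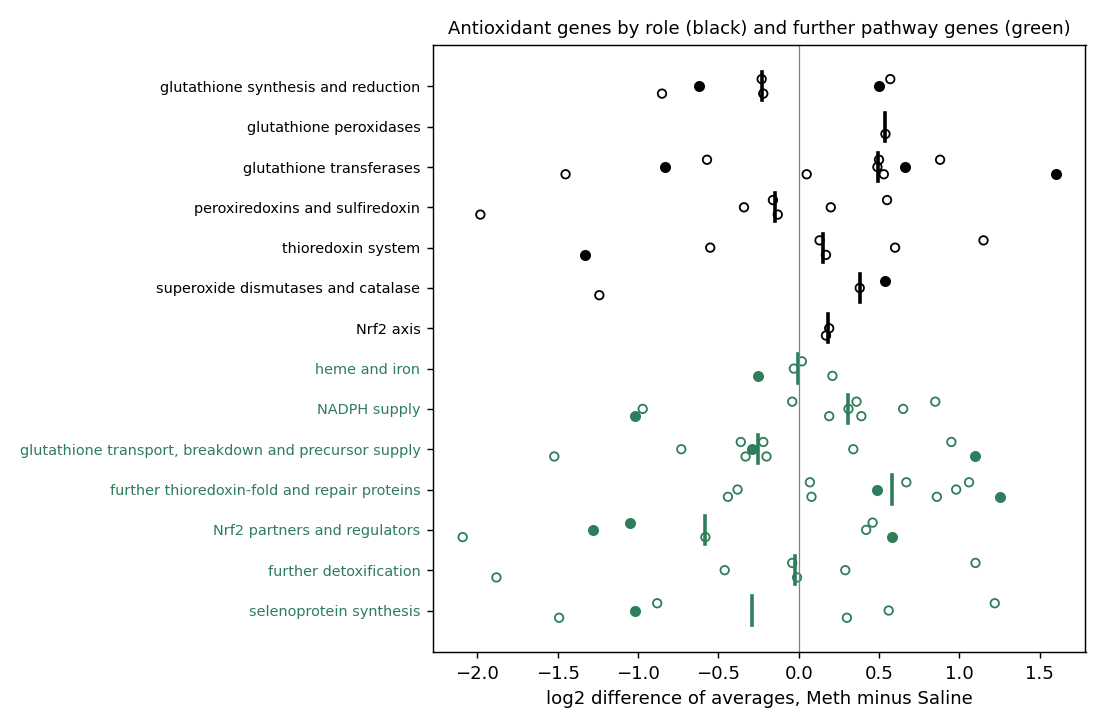
Log2 difference of the averages (Meth minus Saline, x axis) of genes with either average at 1 or above, by role of the antioxidant genes (black) and by further pathway list (green). Filled circles have an unadjusted p under 0.05, open circles do not, and the bar is the median of the row, which runs from -0.58 for Nrf2 partners and regulators to 0.58 for further thioredoxin-fold and repair proteins.

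Methionine sulfoxide reductases, which repair oxidised methionine with thioredoxin, belong to the further thioredoxin-fold and repair list, where 8 of 13 genes were higher and 5 lower. Msrb1, a selenoprotein, stood at 6.44 in Meth and 5.19 in Saline per the authors' deposited table (2.37-fold higher, unadjusted p = 0.0276, adjusted p = 0.3947). Msra, which acts on the other stereoisomer of methionine sulfoxide, stood at 5.11 in Meth and 4.05 in Saline according to the authors' deposited table (2.09-fold higher, unadjusted p = 0.0529). The authors' deposited table lists the stress-induced Sesn2 as higher, at 3.69 in Meth and 3.20 in Saline with an unadjusted p of 0.0205. Nucleoredoxin, Nxn, was lower in Meth (0.02, against 0.45 in Saline) per the authors' deposited table, at an unadjusted p of 0.0401. Both of its averages lie near the floor of the scale, where a direction means little.

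Nrf2 partners and regulators had 3 higher and 4 lower averages. Bach1, a repressor that competes with Nrf2 for its elements, stood at 5.34 in Meth and 6.39 in Saline as given in the authors' deposited table (2.07-fold lower, unadjusted p = 0.0485). Sqstm1 (p62), an autophagy receptor that can sequester Keap1, stood at 6.79 in Meth and 8.07 in Saline per the authors' deposited table (2.42-fold lower, unadjusted p = 0.0407). Nfe2l1, a relative of Nrf2 that controls proteasome genes, stood at 8.16 in Meth and 7.58 in Saline according to the authors' deposited table (1.49-fold higher, unadjusted p = 0.0258). These 3 genes did not pass the adjusted threshold, with adjusted p of 0.4880, 0.4605 and 0.3863 in the authors' deposited table.

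Glutathione and thioredoxin reductases consume NADPH. Of the 9 genes listed for its supply, directly or as part of the pentose phosphate pathway, 6 were higher and 3 lower in Meth. Nnt, the mitochondrial transhydrogenase, stood at 5.16 in Meth and 6.18 in Saline as given in the authors' deposited table (2.04-fold lower, unadjusted p = 0.0056, adjusted p = 0.1764). Genes of the pentose phosphate pathway G6pdx, Pgd, Pgls, Tkt and Taldo1 had higher Meth averages, by 1.14- to 1.80-fold, with unadjusted p from 0.0649 to 0.4372 in the authors' deposited table. Selenoprotein synthesis, on which Gpx1 and the thioredoxin reductases depend, had 3 higher and 3 lower averages, and Pstk, the kinase that primes the selenocysteine transfer RNA, stood at 2.42 in Meth and 3.44 in Saline per the authors' deposited table (2.02-fold lower, unadjusted p = 0.0027, adjusted p = 0.1019).

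Of the remaining lists, glutathione transport, breakdown and precursor supply had 4 higher and 7 lower averages among 12 genes. Hagh, the hydrolase that returns glutathione at the end of the glyoxalase pathway, was 2.14-fold higher per the authors' deposited table (6.76 in Meth and 5.66 in Saline, unadjusted p = 0.0494). Abcc4, an efflux transporter for conjugates, was 1.22-fold lower per the authors' deposited table (5.04 in Meth and 5.33 in Saline, unadjusted p = 0.0282). Blvra, a biliverdin reductase, was 1.18-fold lower according to the authors' deposited table (3.74 in Meth and 3.99 in Saline, unadjusted p = 0.0182). In the detoxification list 2 genes were higher and 5 lower, and 0 of 7 had an unadjusted p under 0.05.

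Transcript GC content moved with the differences of the whole table. Across 9965 genes with either average at 1 or above, Spearman's rho between GC content and difference was 0.21, across genes that are not independent replicates. The 34 members at that level had a median GC content of 50.0%, against 49.6% for all such genes, and with the trend removed their median difference was 0.07 in place of 0.17. Of the 29 named members with a GC-corrected value, 10 moved by over 0.1 and 2 changed sign, Keap1 (-0.10) and Gstm4 (-0.09). The difference of Prdx5 went further below 0, to -0.38 with the trend removed, against -0.16 without.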

How the data were processed

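Libraries from 6 mice, 3 given methamphetamine and 3 given saline, were made with the AmpliSeq mouse transcriptome panel and sequenced on an Ion S5XL, per the labels' protocols. How reads were aligned, counted and normalized, to which build, and with which model groups were compared, is not given in the sources used here. Per the file headers, the authors deposited group averages on a log2 scale, a signed linear fold score of Meth over Saline, which is negative where Saline is higher, and an unadjusted p-value and FDR adjusted p-value per gene. With 2 raised to each average, less 1, the genes sum to 981392 in Meth and 1012049 in Saline, so they were read as log2 of a rate per 1000000 reads plus 1. The deposited fold equals the difference of the averages within 0.017, and the FDR equals a Benjamini-Hochberg step on the p-values within 0.0023.

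Members and lists were chosen with earlier results of these data known. Named were members with an unadjusted p under 0.05, whole role groups of up to 6 genes, and otherwise the 4 highest and the 2 most different members of a role. Other members, and pathway genes with an unadjusted p above 0.05, were named after their values were seen. Differences, sums, motif matches and GC content (longest GENCODE M21 transcript) were computed with Python 3.11.15, numpy 2.4.6 and pandas 2.3.3, and the Benjamini-Hochberg step and the GC correction were tested on simulated data. Some markers chosen at the outset are not reported here. Alternatives were other offsets, scalings, level minimums and thresholds.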

Additional observations from a re-analysis of the deposited data

How the results depend on the processing

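The median difference of the members, 0.00 over all 52, was 0.17 over those with either average of at least 1 and 0.20 over those with at least 3. It stayed within 0.1 of 0.00 with the median (0.02) of genes with either average of at least 1 subtracted, groups rescaled to the same sum, offsets of 0.5 or 5, and a mean instead of a median. With the GC trend removed, an alternative chosen after seeing the data, the median of the members with either average of at least 1 was 0.07, against 0.17 without. At a threshold of 0.01 on the unadjusted p, 0 members were higher and 1 (Gstt2) lower, against 4 and 3 at 0.05. With the deposited p adjusted over genes with either average of at least 1, 0 members passed, against 1 over all genes. Subtracting that 0.02 turned the 8 equal members lower, 27 in place of 19. Of 34 named members, 34 moved by at most 0.1 under both scalings, 13 moved further with an offset of 5, 9 with an offset of 0.5, and 10 of the 29 with a GC-corrected value with the GC trend removed, where Keap1 (-0.10) and Gstm4 (-0.09) changed sign. With 0 columns of values per mouse, no library could be left out, and depth sets an unknown limit on low genes. No paired analysis was possible because the table has no values per mouse.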

Other observations

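Some deposited p-values of members recur across the table. Gstm3, Gstt1 and Sod3, with averages of at most 0.01 in both groups of the authors' deposited table, have unadjusted p between 0.5582 and 0.5586, a range that holds 883 genes, of which 5 have either average at 1 or above. Prdx6 and the retrogene Prdx6b share the same unadjusted p, 0.1321, in the authors' deposited table at very different levels (1.67 in Meth and 3.65 in Saline for Prdx6, 0.13 in Meth and 0.02 in Saline for Prdx6b), and 7 genes have that value in all. Nfe2l2 and Keap1 have p over 0.9 at differences of 0.19 and 0.17, and of 1259 genes at 1 or above with a difference between 0.12 and 0.22 in either direction, 89 have p over 0.9 and 20 have p under 0.05, with a median p of 0.543.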
